A study of Arabidopsis thaliana with 8 samples.

Results

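The RPP1 cluster on chromosome 3 of Arabidopsis thaliana holds a family of closely related immune receptor genes, and 4 of them were described here out of 28642 loci in the count table. The members, RPP1 (AT3G44480), AT3G44400, AT3G44630 and AT3G44670, were selected on their gene, exon and intron read counts in the 4 groups of the study and then taken by locus identifier. Their values in those groups, and whether they passed the threshold of a fit over all loci, are therefore a description. For genes chosen on these counts, passing it is no test and supports nothing. Whole 14-day-old seedlings of Landsberg erecta, grown on GM medium, gave the poly(A) RNA, which was sequenced on the Ion Proton. The 4 groups, of 2 biological replicates each, were the wild type at 0 h, the wild type at 4 h, the homozygous mutant smn2 -/- at 0 h and smn2 -/- at 4 h, where the time is that of treatment with 0.1 µM flg22. No 4 h group without flg22 was analysed here, so flg22 cannot be told apart from time of day and handling. The mutated gene is HEN2, as background knowledge and not from the labels.

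RPP1 belongs to the TIR-NLR class, intracellular receptors with a signalling domain (TIR) at the start, a nucleotide-binding switch in the middle and leucine-rich repeats at the end. In the accession Wassilewskija, RPP1 proteins recognise the effector ATR1 of the downy mildew Hyaloperonospora arabidopsidis, and the activated TIR domains form an enzyme whose small-molecule products act through EDS1 with PAD4 or SAG101 and the helper receptors of the ADR1 and NRG1 families. The Landsberg erecta version of the cluster differs from that of Columbia, from which the genome build derives, and is known for autoimmunity in hybrids with some other accessions. The flg22 peptide of bacterial flagellin is sensed at the cell surface by FLS2, a receptor of another class. HEN2 is an RNA helicase that brings transcripts to the nuclear exosome, the complex that degrades RNA from its 3′ end.

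The table places AT3G44400 at chr3:16044687-16049701, RPP1 at chr3:16090564-16096359, AT3G44630 at chr3:16195955-16201225 and AT3G44670 at chr3:16216945-16221617 in TAIR10. From the start of the first to the end of the last, the stretch is 177 kb. RefSeq gives all 4 as protein-coding, AT3G44400 and RPP1 on the minus strand and AT3G44630 and AT3G44670 on the plus strand. Its longest coding sequences have 3024 bases in AT3G44400, 3723 in RPP1, 3723 in AT3G44630 and 3660 in AT3G44670, each open from start codon to stop codon.

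The nucleotide-binding switch is shown first, since it is the part by which these receptors are switched on and one in which 3 of the genes are nearly identical. Each line gives 60 coding bases from RefSeq (TAIR10.1), 5′ to 3′ on the gene's own strand, with the 24 bases that encode the P-loop in capitals.
AT3G44400: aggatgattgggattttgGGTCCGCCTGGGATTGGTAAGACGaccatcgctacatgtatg
RPP1: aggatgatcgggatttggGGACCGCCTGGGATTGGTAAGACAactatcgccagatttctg
AT3G44630: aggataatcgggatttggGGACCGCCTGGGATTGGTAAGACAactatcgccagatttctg
AT3G44670: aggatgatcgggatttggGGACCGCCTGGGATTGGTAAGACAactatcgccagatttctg
The RPP1 and AT3G44670 stretches differ at 0 of 60 bases, RPP1 and AT3G44630 at 1, and AT3G44400 and RPP1 at 9. In the 24 bases of the P-loop itself, AT3G44400 differs from each of the others at 2. The stretches lie at chr3:16048778-16048837 (AT3G44400), chr3:16094890-16094949 (RPP1), chr3:16197372-16197431 (AT3G44630) and chr3:16218348-16218407 (AT3G44670).

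Just after the P-loop, RPP1, AT3G44630 and AT3G44670 share an identical run of 270 coding bases, printed here because a read that falls within it fits all of them equally.
RPP1, AT3G44630 and AT3G44670: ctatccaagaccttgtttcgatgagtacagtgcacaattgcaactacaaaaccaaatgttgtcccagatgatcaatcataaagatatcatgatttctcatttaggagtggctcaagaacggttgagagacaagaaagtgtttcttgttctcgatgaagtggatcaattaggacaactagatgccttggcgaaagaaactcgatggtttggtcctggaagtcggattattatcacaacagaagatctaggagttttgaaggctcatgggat
It lies at chr3:16094561-16094830 in RPP1, chr3:16197491-16197760 in AT3G44630 and chr3:16218467-16218736 in AT3G44670, and between RPP1 and AT3G44630 the identity runs on to 338 bases. AT3G44400 shares its longest run with RPP1 and AT3G44630, 126 bases nearer the start codon.
AT3G44400, RPP1 and AT3G44630: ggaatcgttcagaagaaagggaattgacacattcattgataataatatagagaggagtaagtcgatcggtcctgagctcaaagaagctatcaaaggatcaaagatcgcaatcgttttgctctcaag
Over the aligned coding sequences, identity was between 89.7% (AT3G44400 and RPP1) and 93.5% (RPP1 and AT3G44670).

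The sequence before the genes separates them further. In windows from 250 bases before to 50 bases after the RefSeq gene start, RPP1 and AT3G44670 have the same base at 297 of 300 positions, while the other pairs match at 73 to 84 when set side by side without gaps. Aligned with gaps, those pairs were identical at 62.8% to 80.8% of 193 to 242 aligned bases, and at 80.8% for RPP1 and AT3G44630. The first 116 bases of these windows hold all 3 differences, in capitals below.
RPP1: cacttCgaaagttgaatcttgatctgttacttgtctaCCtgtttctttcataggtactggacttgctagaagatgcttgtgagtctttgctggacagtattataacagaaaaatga
AT3G44670: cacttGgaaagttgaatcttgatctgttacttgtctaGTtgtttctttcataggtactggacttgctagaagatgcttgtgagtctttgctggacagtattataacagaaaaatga
The stretches are chr3:16096612-16096727 on the minus strand and chr3:16216556-16216671 on the plus strand, and lie within AT3G44485 and AT3G44665, small genes that RefSeq annotates there and that the count table does not list as rows of their own. The W-box core bound by WRKY factors, searched as TTGACC or TTGACT on both strands, has 0 matches in each of the 4 windows of 300 bases. Among 27443 protein-coding genes, 32.4% of such windows hold one. A missing match says only that these letters are not in the window.

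The libraries held 6856882 to 15791296 gene reads on 22531 to 24808 loci, and 3 reads corresponded to 0.161 to 0.488 counts per 1000000 (CPM, scaled by TMM). Ribosomal RNA loci took 26.7% to 35.8% of the reads in the libraries numbered 910 and 40.3% to 44.4% in those numbered 918, which the file headers assign to separate Proton runs. HEN2 measured 33.3 ± 1.90 CPM in the wild type and 10.2 ± 0.660 in smn2 at 0 h, and 52.9 ± 4.02 and 13.5 ± 2.24 at 4 h (mean ± SD, n = 2 throughout). FRK1, a marker gene of flg22 signalling, went from 1.59 ± 0.270 to 169 ± 41.5 CPM in the wild type and from 0.361 ± 0.0817 to 244 ± 128 in smn2. The leaf genes RBCS1A and CAB3 and the root gene PYK10 were at 434 CPM or more in every library. The other markers were lower, the leaf gene MYB60 at 4.54 to 9.44 CPM and the root genes SULTR1;2 at 68.3 to 237 and PHT1;1 at 39.8 to 134. The floral genes AP3 and AG did not exceed 0.813 CPM.

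By all gene reads, RPP1 was the member with the highest level before flg22 and the one with the widest range. Its CPM was 133 and 145 in the wild type at 0 h, 79.1 and 65.1 in the wild type at 4 h, 381 and 350 in smn2 at 0 h, and 223 and 152 in smn2 at 4 h, in the order of replicates 910 and 918. No group overlapped another, and the order was smn2 at 0 h, smn2 at 4 h, wild type at 0 h, wild type at 4 h, with the lowest smn2 library at 4 h (152) next to the highest wild-type library at 0 h (145). The share of all loci with the 4 groups apart was not counted. In the single comparisons of genotype or time, 18.6% to 31.1% of loci were apart in the direction of RPP1.

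AT3G44630 followed the same order of groups at a lower level. It had 97.2 and 119 CPM in the wild type at 0 h, 85.2 and 72.6 at 4 h, 221 and 252 in smn2 at 0 h, and 171 and 120 at 4 h. The library of smn2 at 4 h with 120 CPM lay beside the wild-type library at 0 h with 119, so the difference between those groups is small against the spread.

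AT3G44670 measured 114 and 121 CPM in the wild type at 0 h, 69.7 and 61.5 at 4 h, 188 and 198 in smn2 at 0 h, and 125 and 93.3 at 4 h. Its smn2 libraries at 4 h lay on both sides of the wild-type libraries at 0 h. AT3G44400, the shortest coding sequence of the set, had 46.7 and 64.8 CPM in the wild type at 0 h, 40.0 and 40.9 at 4 h, 89.6 and 93.8 in smn2 at 0 h, and 64.6 and 55.7 at 4 h. Here too smn2 at 4 h overlapped the wild type at 0 h.

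**Figure D1:**
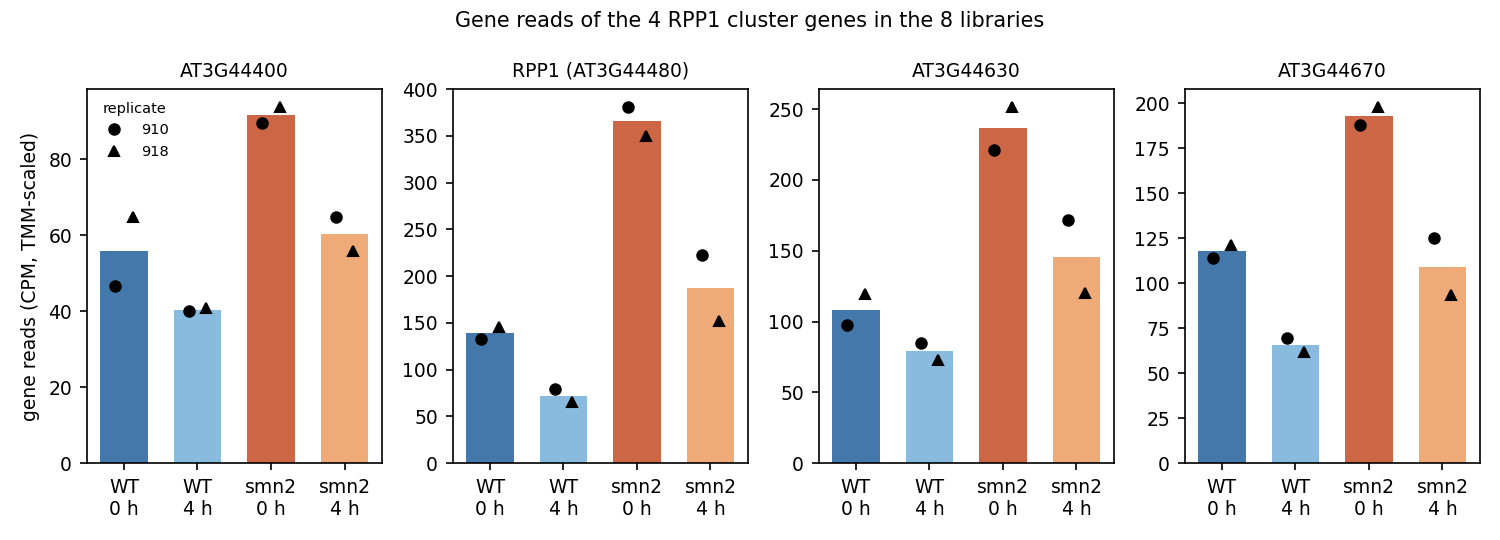
Gene reads per 1000000 (CPM, TMM-scaled, linear axis from 0) of each gene by group; bars are means of 2 libraries and points are the libraries (circle, replicate 910; triangle, replicate 918). In each gene both smn2 libraries at 0 h lie above every other library, for RPP1 at 381 and 350 CPM. The share of all loci with that order was not counted.

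At 0 h, each member was higher in smn2 than in the wild type. RPP1 differed by 1.40 ± 0.24 (log2 ± SE, a 2.63-fold difference), AT3G44630 by 1.13 ± 0.24 (2.18-fold), AT3G44400 by 0.72 ± 0.21 (1.65-fold) and AT3G44670 by 0.71 ± 0.21 (1.64-fold). The lower smn2 library stood above the higher wild-type library in all 4 genes, as in 18.6% of the 19649 loci tested. In the fit over these loci 1 member, RPP1, passed an adjusted p of 0.05 (edgeR quasi-likelihood test, Benjamini-Hochberg), where 0.733% of loci passed as higher. A larger log2 difference than that of RPP1 was found at 389 loci, or 1.98%, and than that of AT3G44670 at 1411. The median over the members was 0.92, and over the loci tested -0.02. With the run as a term in the fit, 2 members passed, RPP1 and AT3G44630, where the loci passing as higher rose from 144 to 224. With only the 2 groups compared in the fit, 0 members and 16 loci passed as higher. When any single library was left out, the log2 difference of RPP1 stayed between 1.33 and 1.46. Its call was lost without any library at 0 h, or without either wild-type library at 4 h. In those fits fewer loci than the 144 passed as higher.

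After 4 h of flg22 the same direction was measured in each member. RPP1 was 1.38 ± 0.24 higher on the log2 scale in smn2 (2.60-fold), AT3G44630 0.89 ± 0.24, AT3G44670 0.73 ± 0.21 and AT3G44400 0.58 ± 0.21. The groups did not overlap in any of the 4 genes, as in 20.1% of the loci tested. With edgeR 0 members passed, where 0.280% of loci, or 55, passed as higher. An unadjusted p under 0.05 was found for 4 of 4, but the share of all loci below it was not counted. DESeq2 called 1, RPP1, where it called 140 loci as higher. With the run as a term the count was 1, again RPP1, where 108 loci passed as higher.

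Both runs gave the genotype difference separately. At 0 h the log2 ratio of smn2 to the wild type for RPP1 was 1.52 in run 910 and 1.27 in run 918, for AT3G44630 1.19 and 1.08, for AT3G44670 0.72 and 0.71 and for AT3G44400 0.94 and 0.53. At 4 h it was 1.49 and 1.22 for RPP1, and between 0.45 and 1.01 for the other members. RPP1 had the largest ratio of the members in each run at each time.

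**Figure D2:**
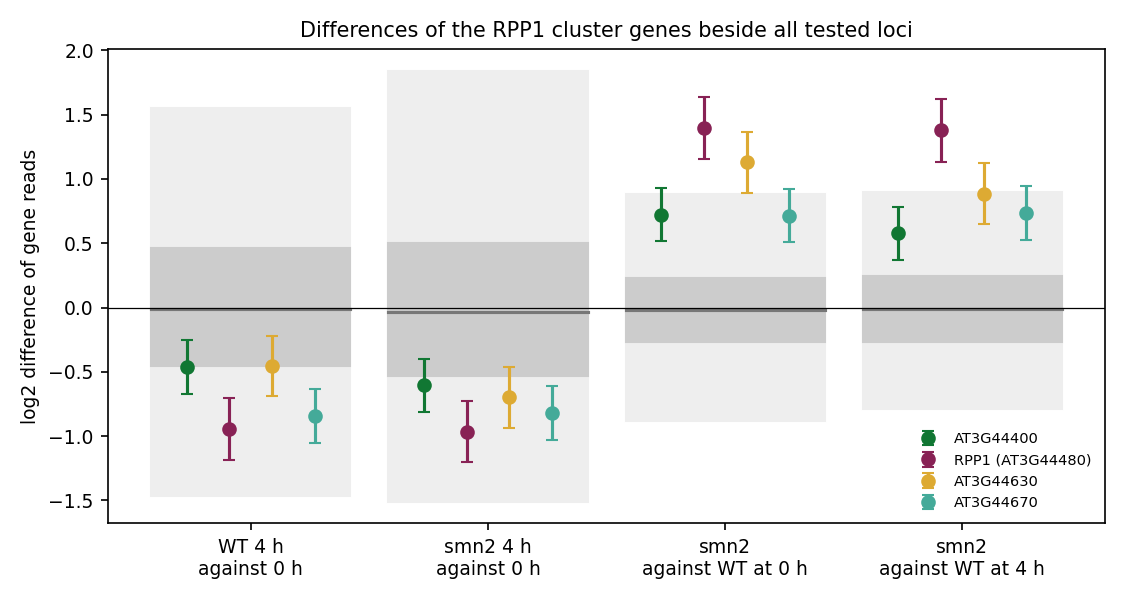
Log2 differences of gene reads with SE for each gene in the 4 comparisons; the dark and light grey boxes hold the 25th to 75th and the 5th to 95th percentiles of the 19649 tested loci, and the grey line is their median. RPP1 lies at 1.40 and 1.38 in smn2 against the wild type, above the 95th percentiles of 0.89 and 0.90.

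After 4 h of flg22 the members were lower than at 0 h in both genotypes. In the wild type RPP1 changed by -0.95 ± 0.24 on the log2 scale (1.93-fold lower), AT3G44670 by -0.84 ± 0.21 (1.79-fold lower), and AT3G44400 and AT3G44630 by -0.46 ± 0.21 and -0.46 ± 0.24. The 4 h libraries lay below the 0 h libraries in all 4, as in 29.8% of loci, and 2 members, RPP1 and AT3G44670, passed as lower, where 6.56% of loci passed as lower and 10.1% as higher. Without any single wild-type library, RPP1 stayed between -1.11 and -0.81 on the log2 scale and AT3G44670 between -0.95 and -0.75. The calls were lost in those fits, where fewer loci passed as lower over all loci too. In smn2 the changes were -0.96 ± 0.24 for RPP1, -0.82 ± 0.21 for AT3G44670, -0.70 ± 0.24 for AT3G44630 and -0.61 ± 0.21 for AT3G44400. The groups again did not overlap, as in 31.1% of loci, and RPP1 and AT3G44670 passed as lower, where 8.88% of loci passed as lower and 12.6% as higher. With the run as a term all 4 passed in smn2, where the loci passing as lower rose from 1745 to 2221. Without the low-count filter 3 did, where 2378 of a larger set of loci passed as lower. Without any single smn2 library, RPP1 stayed between -1.27 and -0.71 on the log2 scale and AT3G44670 between -1.05 and -0.63. Calls were lost in some of those fits, where fewer loci passed as lower over all loci too.

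Still lower log2 values than that of RPP1 were found at 2131 loci in the wild type and at 2355 in smn2, of 19649, and lower ones than that of AT3G44630 at 4942 and 3730. In bulk RNA, fewer cells that transcribe a gene and less RNA per cell cannot be told apart. Markers of leaf and root moved over the same hours. The summed level of the 3 leaf markers (RBCS1A, CAB3, MYB60) was 3515 to 3718 CPM at 0 h and 1083 to 3032 at 4 h in the wild type, and 2993 to 3156 and 1213 to 2257 in smn2. That of the 3 root markers (PYK10, SULTR1;2, PHT1;1) was 2022 to 2888 and 923 to 953 in the wild type, and 2482 to 3068 and 1168 to 1608 in smn2. Both sums were lower at 4 h in each genotype, carried by CAB3 and PYK10, while the means of MYB60 and SULTR1;2 were higher in each. Their part in the result was not tested.

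The difference of the changes, smn2 minus wild type, was -0.02 ± 0.34 for RPP1, 0.02 ± 0.29 for AT3G44670, -0.14 ± 0.29 for AT3G44400 and -0.24 ± 0.33 for AT3G44630. With edgeR 0 members passed and 0 had an unadjusted p under 0.05, and DESeq2 called 0. Of the 19649 loci 0 passed (0%), with 847 (4.31%) at an unadjusted p under 0.05. With SE of 0.29 to 0.34, differences of that size could not be resolved.

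Per length, the genes could be ranked by all exon reads within each group. At 0 h in the wild type RPP1 had 32.4 ± 2.29 exon reads per kilobase and 1000000 gene reads, AT3G44670 27.7 ± 0.955, AT3G44630 24.3 ± 3.54 and AT3G44400 14.4 ± 3.35, with no overlap between neighbours. In smn2 at 0 h RPP1 led with 82.8 ± 4.79, followed by AT3G44630 at 53.3 ± 4.72, AT3G44670 at 45.3 ± 1.93 and AT3G44400 at 23.9 ± 1.11. AT3G44630 and AT3G44670 thus stood in the opposite order in the wild type and smn2 at 0 h, an inversion that was not tested. At 4 h AT3G44630, RPP1 and AT3G44670 overlapped between libraries in the wild type (17.7 ± 1.99, 16.5 ± 2.53 and 15.5 ± 1.30), above AT3G44400 at 10.7 ± 0.149. In smn2 at 4 h RPP1 at 42.2 ± 12.7 overlapped AT3G44630 at 32.7 ± 7.97, which overlapped AT3G44670 at 25.6 ± 5.25, and AT3G44400 at 15.6 ± 1.88 was lowest. Within each library at 4 h the order was nevertheless the one given. The wild-type values were 19.1, 18.3 and 16.4 in replicate 910, and 16.3, 14.7 and 14.5 in replicate 918. Those of smn2 were 51.1, 38.3 and 29.4, and 33.2, 27.1 and 21.9. These levels include reads placed at more than 1 locus. AT3G44670 had more unique exon reads than RPP1 in both wild-type libraries at 4 h (492 against 468, and 323 against 288). AT3G44670 also had more in wild-type replicate 910 at 0 h (1639 against 1545), but not in replicate 918 (957 against 1005). The exon lengths of AT3G44670 and RPP1 are 4149 and 4038 bases, but only part of each can give unique reads. Of the 100-base exon windows, 24.3% recur elsewhere for AT3G44670 and 29.4% for RPP1. Unique reads per exon length therefore do not rank these genes.

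Ratios within a library do not depend on scaling between libraries. The level of RPP1 relative to AT3G44400 was 2.30 ± 0.377 in the wild type at 0 h, 1.55 ± 0.259 in the wild type at 4 h, 3.47 ± 0.362 in smn2 at 0 h and 2.67 ± 0.489 in smn2 at 4 h. At both times the smn2 libraries lay above the wild-type ones. The ratio of AT3G44630 to AT3G44400 was 1.71 ± 0.152 and 2.23 ± 0.0936 at 0 h in the wild type and smn2, without overlap, whereas that of AT3G44670 was 1.97 ± 0.394 and 1.90 ± 0.00771, with overlap. How often ratios of other loci separate the genotypes in this way was not counted. RPP1 made up 32.9% ± 1.06 of the length-scaled exon level of the 4 genes in the wild type and 40.3% ± 2.92 in smn2 at 0 h, and 27.2% ± 1.64 and 36.1% ± 2.28 at 4 h.

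**Figure D3:**
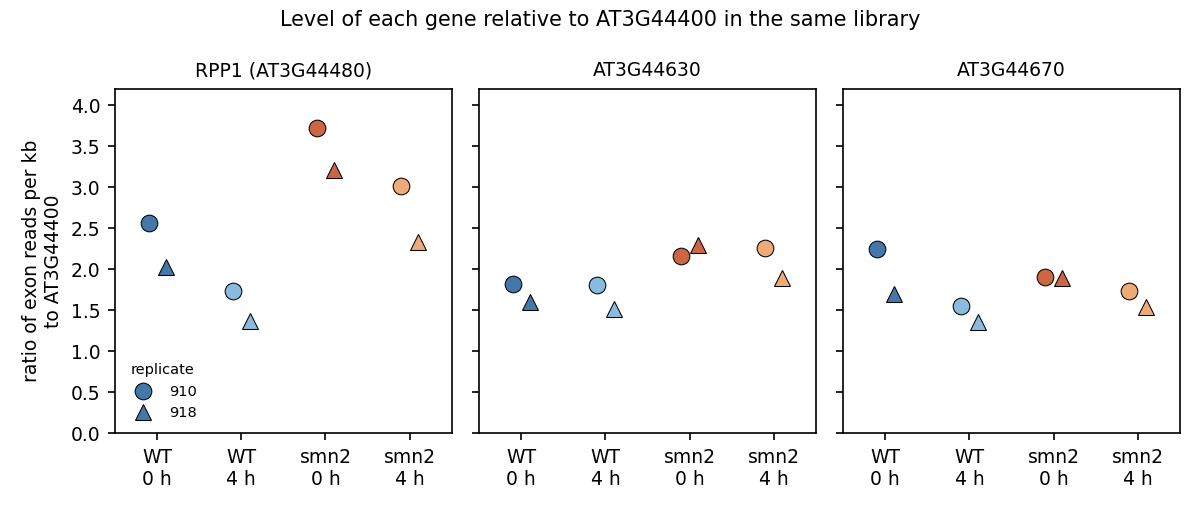
Exon reads per kilobase of RPP1, AT3G44630 and AT3G44670 divided by those of AT3G44400 in the same library (linear axis from 0; circle, replicate 910; triangle, replicate 918). The RPP1 ratio is above 3 in smn2 at 0 h and below 2 in the wild type at 4 h.

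Because the genes share long identical stretches, the deposited table was also read for uniquely placed reads. On average over the 8 libraries 87.6% ± 2.91 of the reads of AT3G44400 were unique, 76.3% ± 2.71 of those of AT3G44670, 69.9% ± 2.39 of AT3G44630 and 66.6% ± 2.76 of RPP1 (SD, n = 8). The share of 100-base exon windows that occur at another place in the genome was 4.81% for AT3G44400, 14.3% for AT3G44630, 24.3% for AT3G44670 and 29.4% for RPP1, and each of these windows recurs in another member. Of the 4931 windows of RPP1, 891 recur in AT3G44670 and 567 in AT3G44630. With unique reads in place of all reads, smn2 against the wild type was 1.36 for RPP1, 1.17 for AT3G44630, 0.76 for AT3G44400 and 0.68 for AT3G44670 at 0 h (log2). At 4 h RPP1 gave 1.46 with unique reads and passed the threshold there.

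Reads in annotated introns were counted apart from exon reads. RPP1 had 153 and 82 intron reads in the wild type at 0 h, 51 and 44 in the wild type at 4 h, 394 and 195 in smn2 at 0 h, and 149 and 108 in smn2 at 4 h. Many were not uniquely placed: in the same order, 85 and 43, 20 and 16, 218 and 97, and 62 and 68 were unique. Scaled like the gene reads, all intron reads came to 8.16 ± 0.0829, 5.59 ± 0.334, 31.3 ± 2.43 and 16.9 ± 0.963 per 1000000 gene reads. The smn2 groups lay above both wild-type groups, and the share of all loci with that order was not counted. The other members had few such reads, at most 64 in any library for AT3G44670, 52 for AT3G44400 and 18 for AT3G44630.

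For the fit, intron reads were scaled by TMM among themselves, unlike the values above. Intron reads of RPP1 were then 1.65 ± 0.43 higher in smn2 at 0 h and 1.38 ± 0.44 at 4 h on the log2 scale. Scaled by the gene reads, the difference at 0 h was 1.94. At 0 h the other members stood at 0.57 ± 0.42 (AT3G44670), 0.11 ± 0.42 (AT3G44400) and -0.01 ± 0.64 (AT3G44630), and at 4 h between 0.64 and 1.01. With edgeR 0 of 4 members passed at 0 h, where 1.90% of 4042 loci, or 77, passed as higher, and 0 at 4 h, where 1.06% did. At each time 1 member, RPP1, had an unadjusted p under 0.05, but the share of all loci below it was not counted. DESeq2 called 1 at 0 h, RPP1, where it called 43 loci as higher, and 0 at 4 h. With the run as a term RPP1 passed at both times, where 113 loci passed as higher at 0 h. Leaving out any single library kept the difference of RPP1 at 0 h between 1.60 and 1.68.

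**Figure D4:**
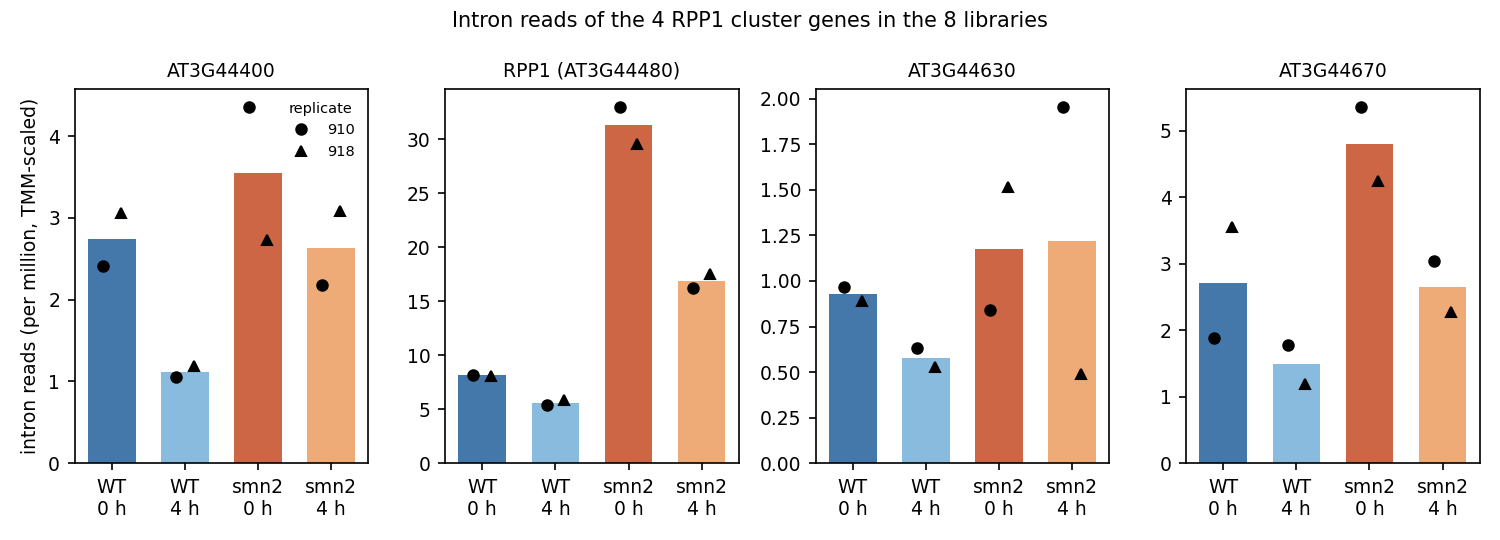
Intron reads per 1000000 gene reads (scaled by the library sizes of the gene reads, linear axis from 0, a separate scale for each gene) by group; bars are means of 2 libraries and points are the libraries (circle, replicate 910; triangle, replicate 918). RPP1 reaches 33.0 and 29.6 in smn2 at 0 h against 8.21 and 8.10 in the wild type, while AT3G44630 reaches 1.96 at most.

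The intron share shows how far intron reads moved beyond the exon reads of the same gene. For RPP1 the intron share of gene reads was 5.88% ± 0.447 in the wild type and 8.56% ± 0.154 in smn2 at 0 h, without overlap, and 7.85% ± 1.54 and 9.42% ± 3.04 at 4 h, with overlap. How many of all loci had intron shares without overlap was not counted. The ratio of intron to exon reads was tested with exon and intron reads each scaled by their own TMM, unlike these shares. At 0 h, smn2 against the wild type was 0.33 ± 0.40 for RPP1, -0.06 ± 0.43 for AT3G44670, -0.62 ± 0.45 for AT3G44400 and -1.16 ± 0.56 for AT3G44630 (log2). At 4 h the ratios stood between -0.09 and 0.46. In both comparisons 0 members passed with edgeR and 0 had an unadjusted p under 0.05, where 0.701% and 0.300% of 3994 loci passed at 0 h and 4 h.

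Reads that cross an exon junction made up 9.66% ± 2.57 of the exon reads of RPP1 and 8.64% ± 2.13 of those of AT3G44400, against 17.7% ± 2.85 for AT3G44670 (SD, n = 8) and a range of 12.8% to 17.7% for AT3G44630. For RPP1 they were 7.45% ± 1.56 in the wild type and 9.92% ± 1.70 in smn2 at 0 h, and 9.90% ± 0.521 and 11.4% ± 4.99 at 4 h, with overlap. At 0 h the nearest RPP1 libraries of the genotypes, at 8.56% and 8.72%, did not overlap. Nor did those of AT3G44400 (6.07% to 6.56% against 7.83% to 10.2%) and AT3G44670 (15.1% to 15.4% against 15.8% to 16.4%), while those of AT3G44630 did. The share of all loci without such overlap was not counted, and the difference was not tested. AT3G44630 has 12 exons in the table and the other members 8. RefSeq also annotates AT3G44635 on the opposite strand within AT3G44630, and whether the counting used strand is not given in the sources used here.

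Between and beside the members lie 29 loci of other kinds (those within the stretch and 5 on each side), of which 14 passed the low-count filter. In smn2 against the wild type 0 of the 14 passed at either time with edgeR, their medians were -0.09 at 0 h and 0.13 at 4 h, and 2 and 3 had an unadjusted p under 0.05. DESeq2 called 1 at 0 h, AT3G44690. This gene just beyond AT3G44670, chosen here after its values were seen, had 5.91 and 2.77 CPM in the wild type and 11.7 and 11.2 in smn2 at 0 h, a log2 difference of 1.36 ± 0.33 (adjusted p = 0.116 in edgeR), and 1.36 ± 0.33 again at 4 h (adjusted p = 0.209).

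After flg22, 3 of the 14 neighbours fell in the wild type. They were FAR4, a fatty acyl reductase that makes alcohols of suberin (-2.00 ± 0.31 on the log2 scale, adjusted p = 0.00260 in edgeR), AT3G44610 (-1.81 ± 0.42, adjusted p = 0.0170) and AT3G44510 (-1.74 ± 0.48, adjusted p = 0.0367). Without the wild-type replicate 910 at 0 h, or without replicate 918 at 4 h, FAR4 alone passed. In smn2 0 of the 14 passed, 6 had an unadjusted p under 0.05, and 3 passed with the run as a term.

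**Figure D5:**
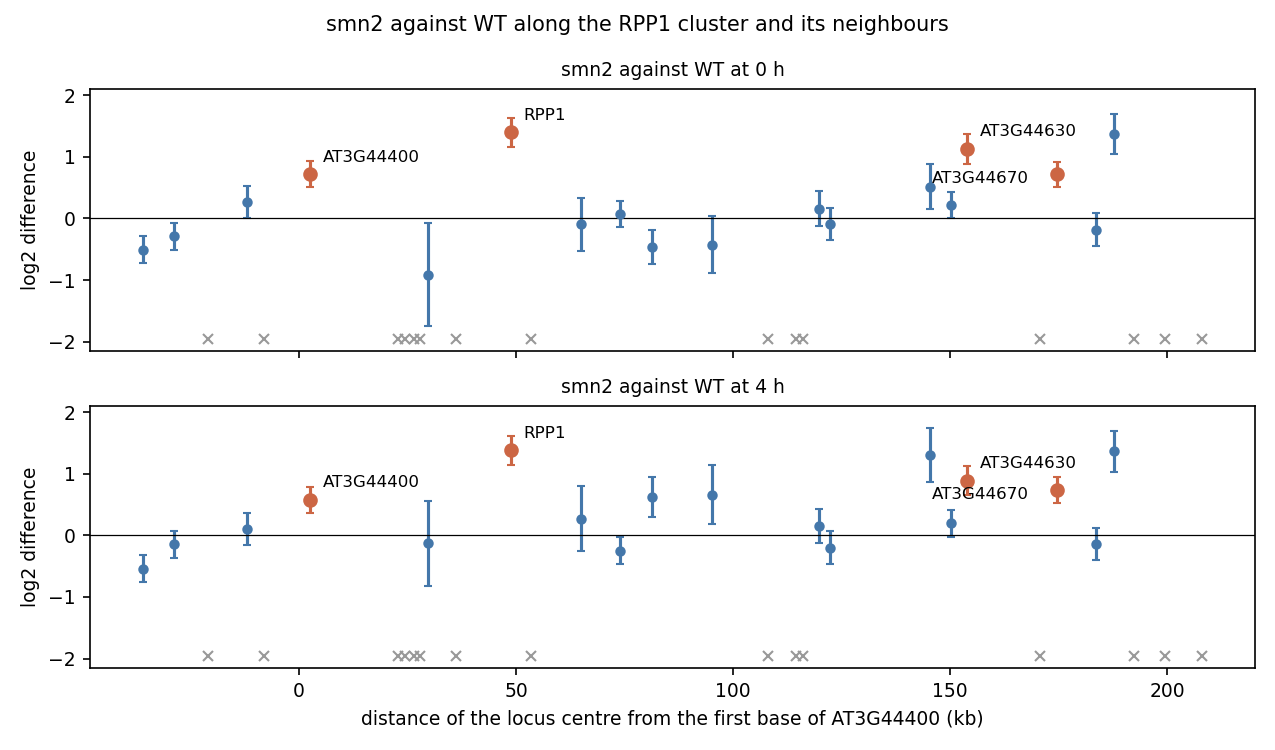
Log2 difference with SE of gene reads in smn2 against the wild type at 0 h (top) and 4 h (bottom) by distance of the locus centre from the first base of AT3G44400, in kb; orange points are the 4 members, blue points the 14 tested neighbours, and grey crosses at the bottom mark loci with too few reads to test. The members stand between 0.58 and 1.40, and the tested neighbours between -0.91 and 1.36, the highest being AT3G44690.

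Of 32 other TIR-NLR genes, from loci elsewhere in the genome, 28 were tested. In smn2 at 0 h 1 rose, AT2G14080, from 22.6 and 24.2 CPM in the wild type to 48.0 and 48.9 (1.05 ± 0.18 on the log2 scale, adjusted p = 0.0281 in edgeR). The median of the list was 0.01 against -0.02 over all loci. That call was lost without any one of the 8 libraries and with only the 2 groups in the fit. With the run as a term 2 genes of the list passed. AT2G14080 was 0.97 ± 0.19 higher at 4 h (adjusted p = 0.0940 in edgeR), where 0 genes of the list passed in edgeR or DESeq2 and 2 had an unadjusted p under 0.05.

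In the wild type at 4 h, RRS1, the partner of RPS4 in recognising bacterial effectors, rose by 0.87 ± 0.19 (adjusted p = 0.0131 in edgeR). LAZ5 rose by 0.91 ± 0.26 (adjusted p = 0.0388 in edgeR), and AT2G14080 fell by 0.83 ± 0.18 (adjusted p = 0.0146 in edgeR). The list's median was -0.13 on the log2 scale. Without wild-type replicate 910 at 0 h or replicate 910 at 4 h the count went from 3 to 0, and without replicate 918 at 4 h to 1. In smn2 3 rose and 3 fell, with a median of -0.08. The largest were LAZ5 (1.16 ± 0.26), TAO1 (-0.99 ± 0.25), RRS1 (0.96 ± 0.19) and AT2G14080 (-0.91 ± 0.18). Without smn2 replicate 910 at 0 h the count of 6 went to 2, and without either smn2 library at 4 h to 3.

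Downstream of these receptors, 15 of 16 genes of the EDS1 node, the helper receptors and the chaperones of NLR proteins were tested. With genotype, 0 passed at either time with edgeR or DESeq2, 3 had an unadjusted p under 0.05 at each time, and the medians were 0.08 at 0 h and 0.16 at 4 h. EDS1 itself had 29.3 and 38.6 CPM in the wild type and 19.2 and 23.7 in smn2 at 0 h, a difference of -0.67 ± 0.21 (log2, adjusted p = 0.266 in edgeR), which is opposite in sign to the members. PAD4 differed by -0.46 ± 0.24, SAG101 by 0.09 ± 0.26, NRG1.1 (AT5G66900) by -0.15 ± 0.25 and ADR1 by 0.40 ± 0.30.

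At 4 h in the wild type 1 gene of this list rose and 1 fell. HSP90.1, a chaperone of NLR proteins, was higher by 1.76 ± 0.53 (adjusted p = 0.0483 in edgeR), and the helper receptor gene AT5G66910 was lower by -0.77 ± 0.21 (adjusted p = 0.0363). With DESeq2 size factors HSP90.1 no longer passed, with DESeq2 AT5G66910 no longer did, and without any one of the 4 wild-type libraries neither did. With the run as a term 4 genes passed in the wild type and 2 in smn2. In smn2 0 genes passed with edgeR, 5 had an unadjusted p under 0.05, and DESeq2 called 1, HSP90.1.

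The pattern over the 8 libraries was compared with that of 18897 loci with a mean of at least 1 CPM, by the root mean square difference in centred log2 CPM. The closest to RPP1 were AT3G26890 (0.186), the plastid glyceraldehyde-3-phosphate dehydrogenase gene GAPCP-1 (0.188) and the receptor-like protein gene RLP48 (0.207). Those closest to AT3G44400 were 2A6 (0.121), AT5G17360 (0.127) and AT5G38344 (0.131), to AT3G44630 TRM21 (0.162), RGTB2 (0.179) and AT2G14080 (0.189), and to AT3G44670 AT5G59050 (0.149), KDR (0.152) and TRM7 (0.157). Among the loci nearest to RPP1, AT3G44630 ranked 14, AT3G44670 ranked 32 and AT3G44400 ranked 128, behind AT2G14080, the TIR-NLR gene at another locus, at rank 7. For AT3G44630 the ranks were 6 for AT3G44400, 7 for AT3G44670 and 68 for RPP1. RPP1 ranked 410 among the loci nearest to AT3G44670 and 4114 among those nearest to AT3G44400. All these distances rest on the same 8 libraries and 1 scaling.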

How the data were processed

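One table of the series was used, whose gene, exon, intron and junction read counts per locus and library were deposited by the authors without normalization, as all and as uniquely placed reads, per the file headers. The submitters' processing notes name TAIR10; for the aligner and the strand, nothing was given in the labels or headers. Landsberg erecta reads were thus counted on a Columbia build, and a gene present only in Landsberg erecta cannot be told apart from its nearest Columbia relative. Table starts count from 0 and were shifted by 1. RefSeq (TAIR10.1) matched 28009 of 28642 loci and gave symbols and sequences (Biopython 1.88).

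Gene reads were tested with edgeR 4.0.16 (R 4.3.3; quasi-likelihood, TMM, filterByExpr, Benjamini-Hochberg threshold 0.05) in 1 fit of 8 libraries and 19649 loci. Intron reads, and intron against exon reads with the library as a block, were tested likewise. The floor of 3 reads covers counting error only. Alternatives were DESeq2 1.42.0, its size factors, no filter, unique or exon reads, no ribosomal or organelle loci, fewer samples and the run as a term. The numbers 910 and 918 name the Proton run in the file headers; deviations of same-numbered libraries correlated at 0.0784 to 0.525 over 6 pairs of groups, and values with the run as a replicate block stand beside results they change. Named list genes were EDS1, PAD4, SAG101, NRG1.1, ADR1 and, per list and comparison, the 4 called genes with the largest differences; per member the 3 loci of most similar pattern were named (0.5 CPM added before logs). The members and lists were chosen with earlier results of these data known.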

Additional observations from a re-analysis of the deposited data

How the results depend on the processing

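In both 4 h changes and both genotype comparisons of gene reads, all 4 members kept their direction under the 16 alternatives run for each. The number called varied more, and so did the number called among all loci. In smn2 against the wild type at 0 h, 144 loci passed as higher in the main fit. There were 241 with DESeq2, 224 with the replicate block and 435 without the low-count filter. In the wild type at 4 h 2 members passed, and as many or fewer when a library was left out. In smn2 at 4 h 2 members passed, where 1745 loci passed as lower. The count was 3 without the low-count filter (2378 loci) and 4 with the replicate block (2221 loci). Leaving out a library gave as many as the main fit or fewer. For smn2 against the wild type at 0 h 1 member passed, then 2 with DESeq2, without the low-count filter or with the replicate block. With only the 2 groups compared the count was 0, where 16 loci passed as higher. Leaving out a library gave as many as the main fit or fewer. At 4 h 0 members passed, where 55 loci passed as higher. The count was 1 with DESeq2 (140 loci), unique reads (58), the replicate block (108) or only the 2 groups compared (81). Without the filter it was 2, where 339 loci passed as higher. For intron reads at 0 h 0 members passed, where 77 loci passed as higher. The count was 1 with DESeq2 (43 loci), unique reads (79), the replicate block (113) or scaling by gene reads (118). That scaling was an alternative chosen after seeing the data. The call varied when a library was left out. For intron reads at 4 h the count was 0, then 1 with unique reads or the replicate block. The member behind each single call was RPP1. The cause of these changes was not tested, other than that fewer libraries or loci enter some fits. For the difference of the 4 h changes and the intron to exon ratio 0 members were called under every alternative, and the signs of some of these small values varied. Without the low-count filter, 3 TIR-NLR genes passed at 0 h (1 with it), 5 neighbours at 4 h in each genotype (3 in the wild type and 0 in smn2 with it) and 5 and 4 genes of the EDS1 list at 4 h in the wild type and smn2 (2 and 0 with it). The replicate block could not be added to the intron to exon ratio, where the library is already the block. With 2 libraries a group and at most 64 intron reads per library in AT3G44400, AT3G44630 and AT3G44670, intron differences of those genes have an SE of 0.42 to 0.75 on the log2 scale.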
